A study of Mus musculus with 6 samples.

Results

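Collagen chain genes encode the alpha chains from which collagens, the main structural proteins of the extracellular matrix, are built. They were chosen by symbol: every gene of the deposited table whose mouse symbol in GENCODE has the form Col, a number, a and a number. The rule found 41 of 22310 genes, out of 44 genes with such a symbol in the GRCm38 annotation, and Col13a1, Col19a1 and Col28a1 were not listed in the table. RNA had been sequenced from mammary tumor cells sorted into metastasis-initiating cells (MICs), which are Lin−CD24+CD90+, and non-MICs, which are Lin−CD24+CD90−, with 3 libraries of each numbered 1 to 3. The cells came from spontaneous tumors of MMTV-PyMT mice (strain FVB/N), in which the promoter of the mouse mammary tumor virus drives the polyoma middle T oncogene in mammary epithelium. All 6 libraries carry the genotype label WT although the cells hold this transgene, and the labels give neither the age of the animals, which by the study's methods were adults within a span of some weeks, nor whether same-numbered libraries came from a single tumor. Both populations were grown on collagen-coated plates, in DMEM/F12 medium with hEGF at 20 ng/ml and insulin at 10 µg/ml, 1% penstrep and 2% FBS, and were sorted 1 day after plating. No drug or other agent set the populations apart, only the CD90 gate.

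Collagen chains fold by threes into a triple helix, which needs glycine as the first residue of each repeat Gly-X-Y. Fibrillar chains assemble into the banded fibrils of connective tissue, type IV chains form the network of basement membranes, FACIT chains sit on fibril surfaces, type VI chains form beaded filaments, and transmembrane chains anchor cells to the matrix. In the mammary gland most fibrillar collagen comes from stromal cells, whereas epithelial cells contribute to the basement membrane on which they rest. The values used here are normalised read counts, which the authors scaled to the same total in every library, and the reads behind them were recovered as whole numbers of between 31467281 and 51759769 per library. One read was worth between 0.676 and 1.11 of a normalised count. Of the 41 chains, 27 had at least 10 reads in every library and 14 did not.

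The gate itself was visible in the data. Thy1, which encodes CD90, had 1509, 301 and 755 normalised read counts in MIC libraries 1, 2 and 3 and 16.9, 21.1 and 12.6 in the non-MIC libraries. Every MIC library lay above every non-MIC library. Cd24a, which encodes the marker that both populations share, had between 11309 and 19406 normalised read counts in MICs and between 14009 and 18754 in non-MICs. Collagen chains together took 0.342%, 0.217% and 0.162% of the reads of MIC libraries 1, 2 and 3 and 0.201%, 0.268% and 0.123% of those of the non-MIC libraries. MICs held the larger share in pairs 1 and 3 and the smaller one in pair 2, and the groups overlapped. In such bulk libraries a larger share of cells that express a gene and more of its RNA per cell cannot be told apart.

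Set against exon length, the highest chain was Col18a1, whose C-terminal fragment is endostatin, with a mean of 3293 normalised read counts per kb of exon over the 6 libraries and a range from 1293 to 5167. Col4a1 and Col4a2, the chains of the common type IV network, followed with means of 1697 and 1186 per kb. Col7a1, the anchoring fibril chain that ties the basement membrane to the tissue under it, had 904 per kb, Col4a5 had 705, Col12a1 had 431 and Col8a1 had 345. The first 8 places of the order, which end with Col17a1 at 213 per kb, held no fibrillar chain. The mean of Col17a1 rested on MIC library 1, with 918 per kb, and the other libraries had between 11.8 and 151. The ranges over libraries of Col4a1, Col4a2, Col7a1 and Col4a5 overlapped. Col4a1 stood above Col4a2 in every library, but the places of Col7a1 and Col4a5 changed. In MIC library 3 Col7a1 had 975 per kb and Col4a1 849, and in MIC library 2 Col4a5 had 995 and Col7a1 528. Col5a2 had the highest mean of the fibrillar chains with 135 per kb (range 13.9 to 413), but led them only in both libraries of pair 1, and Col11a1 led in MIC libraries 2 and 3 and non-MIC library 3 and Col5a1 in non-MIC library 2. Col1a1, Col1a2 and Col3a1, the chains of the major interstitial collagens I and III, had 48.2, 37.7 and 12.2 per kb. Counted per kb of the longest coding transcript instead, the leading chain of every class was the same, and Col1a2 with 87.5 stood above Col1a1 with 53.3.

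**Figure D1:**
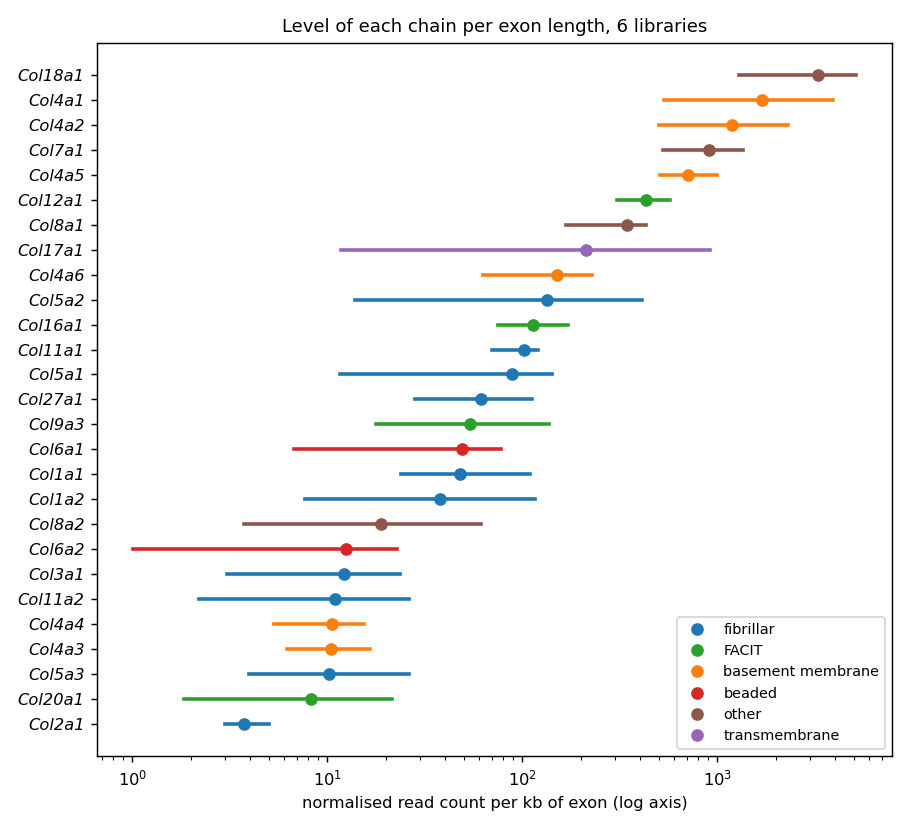
Normalised read counts per kb of exon (log axis) for the 27 chains with at least 10 reads in every library. Points are means over 6 libraries, lines run from the lowest to the highest library and colors give the class. Col18a1 stood highest with a mean of 3293, and the widest line, that of Col17a1, ran from 11.8 to 918.

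Between MICs and non-MICs, 0 of 41 chains passed an adjusted p of 0.05 in limma without a block, where 0.0% of all 22310 genes passed, and 1 chain had an unadjusted p under 0.05 beside 322 genes (1.44%). With the replicate number as a block, Col5a2 alone passed (0.13% of all genes, 29 in number), and 7 chains, all higher in MICs, had an unadjusted p under 0.05 beside 11.2% of all genes. On the recovered reads with the block, edgeR called Col5a2, Col1a2 and Col17a1 (1.41% of all genes), and DESeq2, which gave an adjusted p to 35 of 41 chains and to 14957 genes in all, called Col5a2 and Col1a2 (0.889% of those genes). Without the block edgeR called 0 chains (0.0% of all genes) and DESeq2 0 chains (0.00452% of 22134 genes with an adjusted p), with an unadjusted p under 0.05 for 1 chain (1.32%) and 4 chains (1.2%). The calls with the block in limma changed on omission of a pair, which also leaves fewer libraries to estimate the spread. Without pair 1 (0.0493% of all genes) or pair 3 (0.0%) 0 chains were called. Col17a1, Col1a2 and Col5a2 were called without pair 2 (0.264%). The log2 fold change of Col5a2 was 1.46 without pair 1 and 1.18 without pair 3, beside 1.33 with all pairs.

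By direction, 9 of 41 chains were higher in MICs in all 3 pairs (12.5% of all genes), and 0 were lower in all 3 (18.8% of all genes). Of the 9, Col11a1, Col1a2, Col5a2, Col4a3, Col4a4, Col12a1, Col16a1 and Col17a1 had at least 10 reads in every library, and Col10a1 did not. With TMM rescaling Col16a1 left the 9 and none was added (14.7% of all genes were higher in all 3 pairs and 16.4% lower). With quantile normalization Col4a5 took the place of Col16a1, and Col2a1 and Col9a1 were lower in all 3 pairs (14.9% of all genes higher and 16.5% lower). The 2 chains whose groups did not overlap were Col4a3 and Col12a1, beside 6.24% of all genes. The median log2 fold change, MIC minus non-MIC, was 0.20 over the chains and -0.04 over all genes. On omission of 1 library the median over the chains ran from -0.045 to 0.47. In pairs 1, 2 and 3, the MIC library was higher for 22, 22 and 29 of the 41 chains, where 45.2%, 53.5% and 35.8% of all genes were higher. The pair medians over the chains were 0.01, 0.04 and 0.38.

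**Figure D2:**
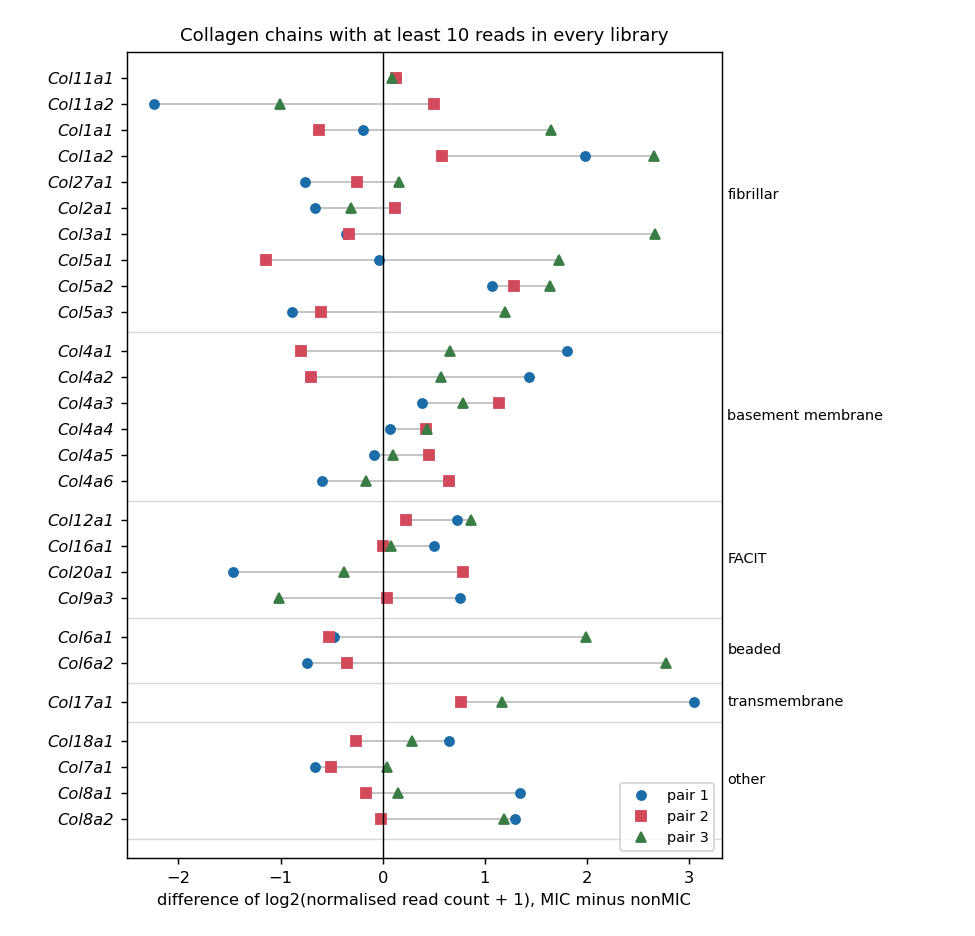
Differences of log2(normalised read count + 1) between the MIC and the non-MIC library of each pair (horizontal axis) for the 27 chains with at least 10 reads in every library, by class. Grey lines join the pairs of a chain, and points right of 0 are higher in MICs. Col5a2, Col1a2 and Col17a1 lay right of 0 in all 3 pairs, whereas Col1a1, Col3a1, Col5a1, Col6a1 and Col6a2 lay right of 0 in pair 3 only.

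Among the 11 fibrillar chains, those whose long helices pack into fibrils, Col5a2 and Col1a2 were higher in MICs in every pair, and most others differed between the pairs. Col5a2 encodes the alpha-2 chain of collagen V, which sits inside collagen I fibrils and limits their width. It had 3957, 326 and 1091 normalised read counts in MIC libraries 1, 2 and 3 and 1883, 133 and 350.0 in non-MIC libraries 1, 2 and 3. Both libraries of pair 1 were the highest of their groups and both of pair 2 the lowest, so that the groups overlapped although MICs were higher in each pair. The pair differences were 1.07, 1.29 and 1.64 on the log2 scale, and the mean difference was 1.33, with a standard error of 1.13 or, with the block, 0.19. The adjusted p-value of limma was 1 without the block and 0.0127 with it, that of edgeR with the block was 2.63e-08, and that of DESeq2 with the block was 9.61e-08.

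Col1a2 encodes the alpha-2 chain of collagen I, which joins a pair of Col1a1 products in the usual collagen I molecule. It had 1450.3, 142 and 649.8 normalised read counts in MICs against 367, 95.1 and 102 in non-MICs. MICs were higher in each pair, and MIC library 2 lay below non-MIC library 1. The pair differences were 1.98, 0.58 and 2.65, and the mean difference was 1.74 with a standard error of 0.89 without the block and 0.32 with it. limma gave an adjusted p of 1 without the block and 0.0729 with it, edgeR with the block 7.89e-12 and DESeq2 with the block 2.42e-05.

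Col1a1, its partner, did not follow Col1a2 through the pairs: its differences were -0.19, -0.62 and 1.65. The ratio of Col1a2 to Col1a1, per kb of exon, was 4.87, 0.312 and 0.478 in MIC libraries 1, 2 and 3 and 1.08, 0.135 and 0.237 in the non-MIC libraries. In each pair the ratio was higher in the MIC library, and within both groups it was highest in library 1. Per kb of the longest coding transcript the same ratios were 10.2, 0.654 and 1.00 in MICs against 2.26, 0.284 and 0.498 in non-MICs.

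Several chains of interstitial matrix were higher in MICs in pair 3 and lower in pairs 1 and 2. For Col3a1, the collagen III chain, the pair differences were -0.36, -0.33 and 2.67. Col5a1, which supplies the alpha-1 chain of collagen V, had differences of -0.03, -1.14 and 1.73. Col5a3, which encodes a further collagen V chain, had -0.89, -0.61 and 1.20. Over these 3 chains and Col1a1 the non-MIC library was the higher one in pairs 1 and 2, and the MIC library in pair 3. The direction of Col5a1 in pair 1 depended on the scaling, with 0.0073 after TMM rescaling and 0.069 after quantile normalization. The ratio of Col5a1 to Col5a2, per kb of exon, ran from 0.319 in non-MIC library 3 to 9.93 in non-MIC library 2. In each of pairs 1 and 2 that ratio was lower in the MIC library (0.337 against 0.726, and 1.84 against 9.93), and in pair 3 both libraries were close (0.342 against 0.319).

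Col11a1, a collagen XI chain that is best known from cartilage, had 978, 1530.5 and 1530.2 normalised read counts in MICs against 894, 1394 and 1438 in non-MICs. The MIC library of each pair was slightly higher, and the pair differences of 0.13, 0.14 and 0.09 were smaller than the spread within either group (SD 0.37 and 0.38 on the log2 scale). Col27a1 had differences of -0.76, -0.25 and 0.16. The other 2 fibrillar chains with at least 10 reads, Col2a1 and Col11a2, had differences from -0.66 to 0.12 and from -2.24 to 0.50. Over the 11 fibrillar chains the median log2 fold change was 0.12, and the MIC library was higher for 3, 6 and 8 of them in pairs 1, 2 and 3.

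The 6 type IV chains, which make the basement membrane network, were all measured with at least 10 reads in every library and took between 29.5% and 42.3% of the collagen reads of a library. Col4a1 had 29309, 10195 and 6339 normalised read counts in MICs against 8366, 17805 and 4001 in non-MICs. MICs were higher in pairs 1 and 3 and lower in pair 2, with differences of 1.81, -0.80 and 0.66, and the mean difference of 0.56 (standard error 0.67 without the block, 0.34 with it) did not pass the test in limma, with an adjusted p of 1 without the block and 0.542 with it. Without MIC library 1 the mean difference was -0.066. Col4a2, which combines with Col4a1 products in the common heterotrimer, differed in the same order by 1.44, -0.71 and 0.57. The ratio of Col4a1 to Col4a2 per kb of exon stayed between 1.06 and 1.70 over the 6 libraries, whereas Col4a1 itself varied 7.33-fold and Col4a2 4.59-fold between the highest and the lowest library.

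Col4a3 and Col4a4, chains of the specialised network of the kidney glomerulus and of some other basement membranes, stood far below Col4a1 per kb of exon (10.4 and 10.6 against 1697). Col4a3 had 123, 165 and 107 normalised read counts in MICs against 94.2, 74.0 and 61.7 in non-MICs. No MIC library was as low as any non-MIC library, and the pair differences were 0.38, 1.14 and 0.78. The mean difference was 0.77 (standard error 0.41 without the block, 0.29 with it), and the adjusted p-value of limma was 1 without the block and 0.418 with it. Col4a4 had 130.5, 164 and 77.1 in MICs against 124, 122 and 56.8 in non-MICs. Its MIC library was the higher one in each pair, by 0.07, 0.43 and 0.43, and the groups overlapped. Col4a5 and Col4a6, the X-linked pair, differed by -0.08, 0.45 and 0.10 and by -0.60, 0.65 and -0.16, and were both higher in MICs in pair 2. Their ratio per kb of exon was similar within each pair and differed between pairs: 5.60 and 3.92 in pair 1, 10.1 and 11.7 in pair 2 and 2.67 and 2.23 in pair 3, the MIC library given first.

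Of the 8 FACIT chains, 4 had at least 10 reads in every library. Col12a1, which encodes a fibril-surface collagen of tendon and other dense matrices, led them. Its values were 7751, 7294 and 8684 normalised read counts in MICs against 4683, 6221 and 4754 in non-MICs. All MIC libraries lay above all non-MIC libraries, and Col12a1 was the chain with an unadjusted p under 0.05 in limma without a block. The pair differences were 0.73, 0.23 and 0.87, and the mean difference of 0.61 (standard error 0.20 without the block, 0.18 with it) had an adjusted p of 1 without the block and 0.385 with it. Between its highest and lowest library Col12a1 varied 1.85-fold. Col16a1, a chain found near basement membranes, had 1162, 776 and 536 in MICs against 819, 776 and 506 in non-MICs. The differences were 0.50, 0.0016 and 0.08, and the groups overlapped. Col9a3 and Col20a1 differed by 0.76, 0.04 and -1.02 and by -1.46, 0.79 and -0.38.

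Among the 6 beaded chains, those of collagen VI, only Col6a1 and Col6a2 had at least 10 reads in every library. Col6a1 had 236, 237 and 120.4 normalised read counts in MICs against 329, 341 and 29.5 in non-MICs. It was lower in MICs in pairs 1 and 2 and higher in pair 3, where non-MIC library 3 had by far the lowest value, and the differences were -0.48, -0.52 and 1.99. The mean difference of 0.33 (standard error 0.92 without the block, 0.41 with it) had an adjusted p of 1 without the block and 0.777 with it in limma, and it was -0.82 without non-MIC library 3. Col6a2 differed by -0.74, -0.35 and 2.78. Col6a3, with 9 reads in its lowest library, had 121, 9 and 576 reads in MICs against 254, 36 and 59 in non-MICs, so that it too was the higher one in MICs only in pair 3.

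**Figure D3:**
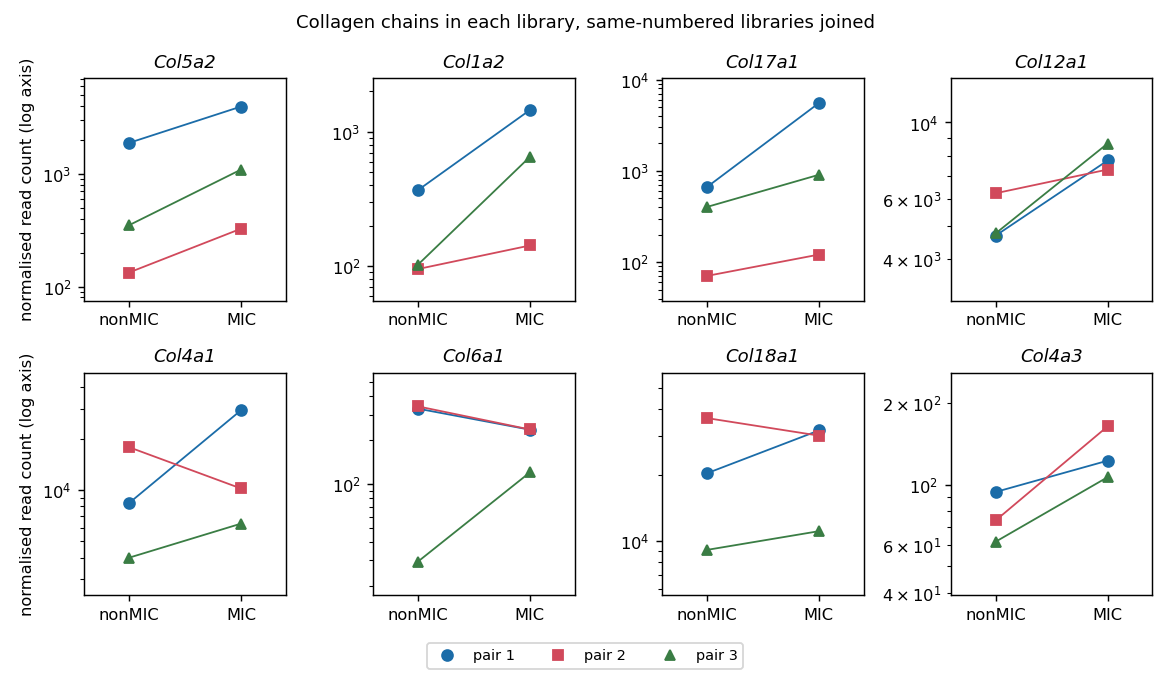
Normalised read counts (log axis) of 8 chains in each library, with the non-MIC and the MIC library of a pair joined by a line. Col5a2, Col1a2 and Col17a1 stood higher in MICs within each pair while the pairs lay far apart, Col12a1 and Col4a3 had no overlap between groups, and Col4a1, Col6a1 and Col18a1 went up in some pairs and down in others.

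Col17a1, the transmembrane collagen of hemidesmosomes, which fasten basal epithelial cells to the basement membrane, was the only transmembrane chain with at least 10 reads in every library. It had 5518, 121 and 906 normalised read counts in MICs against 664, 70.8 and 403 in non-MICs. MICs were higher in each pair, by 3.05, 0.77 and 1.17, and library 1 was the highest and library 2 the lowest of both groups. The mean difference was 1.66 with a standard error of 1.37 without the block and 0.34 with it, and limma gave an adjusted p of 1 without the block and 0.113 with it. edgeR with the block called it at an adjusted p of 2.32e-12, and DESeq2 with the block did not, at 0.263. Between its highest and lowest library Col17a1 varied 77.9-fold, the widest range among the 27 chains with at least 10 reads.

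The remaining chains fall outside these classes, and 4 of 7 had at least 10 reads in every library. Col18a1 had 31840 and 30176 normalised read counts in MIC libraries 1 and 2, 11053 in MIC library 3, and 20303, 36279.8 and 9079.5 in the non-MIC libraries. Library 3 was the lowest of both groups, and the pair differences of 0.65, -0.27 and 0.28 had no common sign. Its mean difference was 0.22 (standard error 0.58 without the block, 0.21 with it), with an adjusted p of 1 without the block and 0.699 with it in limma. Col7a1 differed by -0.66, -0.51 and 0.04. Col8a1 and Col8a2, the short chains of the hexagonal network of collagen VIII, differed by 1.35, -0.16 and 0.15 and by 1.30, -0.02 and 1.19.

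For the 14 chains with fewer than 10 reads in at least 1 library, reads are given in place of fold changes. Col6a5, Col6a6 and Col22a1 had at most 5 reads in any library, Col10a1 at most 8 and Col26a1 at most 10. Col10a1, the collagen of hypertrophic cartilage, had 7, 8 and 2 reads in MICs against 3, 0 and 0 in non-MICs. limma with the block gave it an adjusted p of 0.417. Col6a4 had at most 22 reads, Col24a1 at most 23, Col23a1 at most 43, Col15a1 at most 50, Col9a1 at most 56, Col14a1 at most 59, Col25a1 at most 64 and Col9a2 at most 140. Col14a1 and Col25a1 had 0 reads in MIC library 2.

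The chains of a class share sequence features that the choice by symbol did not use. In the annotated coding sequence, the longest unbroken run of Gly-X-Y triplets held between 337 and 344 glycine codons in 9 of the 11 fibrillar chains, 216 in Col24a1 and 217 in Col27a1, and at most 113 in any other chain. The fibrillar genes had between 21 and 33 coding exons of exactly 54 bases, which is the length of 6 triplets, and the FACIT chain Col22a1 had 28. Exons of Col1a2 and Col5a2, the chains that both edgeR and DESeq2 called with the block, are shown to make this repeat visible, with the glycine codons in capitals. Exon 8 of Col1a2 lies on the plus strand of GRCm38 at chr6:4515481-4515534 and exon 6 of Col5a2 on the minus strand at chr1:45434892-45434945, and both are coding.
Col1a2 exon 8: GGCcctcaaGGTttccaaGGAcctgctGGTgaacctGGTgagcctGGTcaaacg
Col5a2 exon 6: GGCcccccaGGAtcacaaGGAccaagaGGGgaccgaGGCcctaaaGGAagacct
Each of these exons starts with a glycine codon and holds 6 triplets with no break. The type IV chains differ in that their repeat is interrupted many times, with between 23 and 27 separate runs and at most 66 glycine codons in the longest, although Col16a1 and Col17a1 also had 23 runs. Exon 28 of Col4a1, a coding exon of 105 bases on the minus strand at chr8:11222999-11223103, shows such a break near its end, where glycine codons follow each other at another distance.
Col4a1 exon 28: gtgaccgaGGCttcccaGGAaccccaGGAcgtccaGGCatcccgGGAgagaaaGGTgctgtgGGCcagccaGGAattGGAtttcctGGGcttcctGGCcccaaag

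Of the 41 chains, 13 lay within 100000 bases of another on the chromosome, always a chain of the same class. Col5a2 (chr1:45374321-45503282, minus strand) is followed at a distance of 24614 bases by Col3a1 (chr1:45311538-45349706, plus strand), and these neighbours went in opposite directions in pairs 1 and 2 and in the same direction in pair 3. The type IV genes stand head to head in pairs. Of the partner ratios computed per kb of exon that of Col4a1 to Col4a2 varied least, whereas Col4a3 to Col4a4 ran from 0.648 to 1.48, Col4a5 to Col4a6 from 2.23 to 11.7, and Col6a1 to Col6a2, which do not stand head to head, from 3.30 to 6.65. The annotated starts of Col4a1 and Col4a2 are 21 bases apart, those of Col4a3 and Col4a4 72 bases and those of Col4a5 and Col4a6 1309 bases. The stretch between the starts of Col4a1 and Col4a2, at chr8:11312805-11312826 of GRCm38, lies after the start of each, where the annotated genes overlap. It is shown on the plus strand as a short part of the RefSeq promoter sequences because both genes share it. The motif GGGCGG is in capitals.
Col4a1 and Col4a2 starts: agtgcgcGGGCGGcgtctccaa
RefSeq held promoter windows for 35 of the 44 annotated chains (GRCm38.p6, 250 bases before to 50 after a start), and some chains had more than 1 window. Searched on both strands, GGGCGG occurred in 23 of 38 collagen windows (60.5%) and in 35.7% of 32851 windows of all genes, CCAAT in 34.2% and 37.4%, and TATAAA in 13.2% and 13.6%. A match is a description of the letters only. Most chains share no read-length stretch with another gene: over 75 bases, only Col3a1, Col20a1, Col6a5 and Col6a6 had windows in common with one, 67, 5, 272 and 272 of them.

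The genes that act on collagen chains were read beside them, from a list of 52 names that covers hydroxylases and chaperones, propeptide processing, cross-linking, receptors, fibril-bound proteoglycans and collagen-cleaving proteases. The table listed 50, without Gp6 and Tango1 (an alias of Mia3, which is listed), and 40 of these had at least 10 reads in every library. In limma 0 of 50 passed without the block (0.0% of all genes), 2 at an unadjusted p under 0.05 (1.44%), and only Lox passed with the block (0.13% of all genes), where 21 of 50 had an unadjusted p under 0.05 (11.2%). None passed with the block without pair 1 (0.0493% of all genes) or without pair 3 (0.0%), whereas Fkbp10, Lox and Loxl2 did without pair 2 (0.264%). The log2 fold change of Lox was 1.18 without pair 1 and 1.72 without pair 3, beside 1.59 with all pairs. edgeR and DESeq2 without the block called 0 (0.0% and 0.00452% of the genes with an adjusted p). edgeR with the block called 9, all higher in MICs (1.41% of all genes), and DESeq2 with the block called Lox, Fkbp10, Mmp13 and Tll1 among the 45 to which it gave an adjusted p (0.889% of its 14957 genes). In all 3 pairs 20 of 50 were higher in MICs (12.5% of all genes) and 2 lower (18.8%), and the median log2 fold change was 0.33, beside -0.04 over all genes. Within the list, 3 of 5 cross-linking genes, 5 of 9 receptors, 3 of 4 proteoglycans, 3 of 5 proteases, 2 of 8 processing genes and 4 of 19 hydroxylases and chaperones were higher in all 3 pairs.

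Lox encodes lysyl oxidase, which starts the cross-links between collagen molecules. It had 1217, 380.4 and 1204 normalised read counts in MICs against 226, 187 and 476 in non-MICs. MICs were higher in each pair, by 2.42, 1.02 and 1.34, and MIC library 2 lay below non-MIC library 3. The mean difference of 1.59 (standard error 0.55 without the block, 0.25 with it) had an adjusted p in limma of 1 without the block and 0.0299 with it. Fkbp10, a chaperone of procollagen that was picked after its values were seen, differed by 2.34, 0.70 and 1.30, with an adjusted p of 0.0685 in limma and 2.71e-09 in edgeR, both with the block. Tll1, with 3 reads in its lowest library, and Mmp13, an interstitial collagenase, were picked in the same way and were higher in MICs in each pair.

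The leading genes of the groups per kb of exon were by their means P4hb, Bmp1, Loxl4, Itgb1, Bgn and Mmp14, although Loxl2 led the cross-linking genes and Serpinh1 the hydroxylases and chaperones in MIC library 1, and Lox the former in MIC library 3. P4hb, the beta subunit of prolyl 4-hydroxylase, had 45348, 34932 and 41999 normalised read counts in MICs against 26340.1, 30645 and 38247 in non-MICs, with differences of 0.78, 0.19 and 0.13. Bmp1, which removes the C-terminal propeptide of fibrillar procollagens, differed by -0.0078, 0.018 and -0.0086. Loxl4, another member of the lysyl oxidase family, differed by -0.68, -0.78 and 0.08. Itgb1, the beta-1 subunit shared by the collagen-binding integrins, differed by 0.32, 0.31 and 0.32. Bgn, the fibril-bound proteoglycan biglycan, had 1771, 4600.3 and 575 in MICs against 1273, 3255 and 114 in non-MICs, with differences of 0.48, 0.50 and 2.33. Mmp14, a membrane-bound collagenase, differed by 0.53, -0.38 and 0.33. None of these leading genes passed in limma, blocked or not. Bgn alone among them was called by edgeR with the block (adjusted p 9.05e-05), and DESeq2 with the block gave it 0.427.

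**Figure D4:**
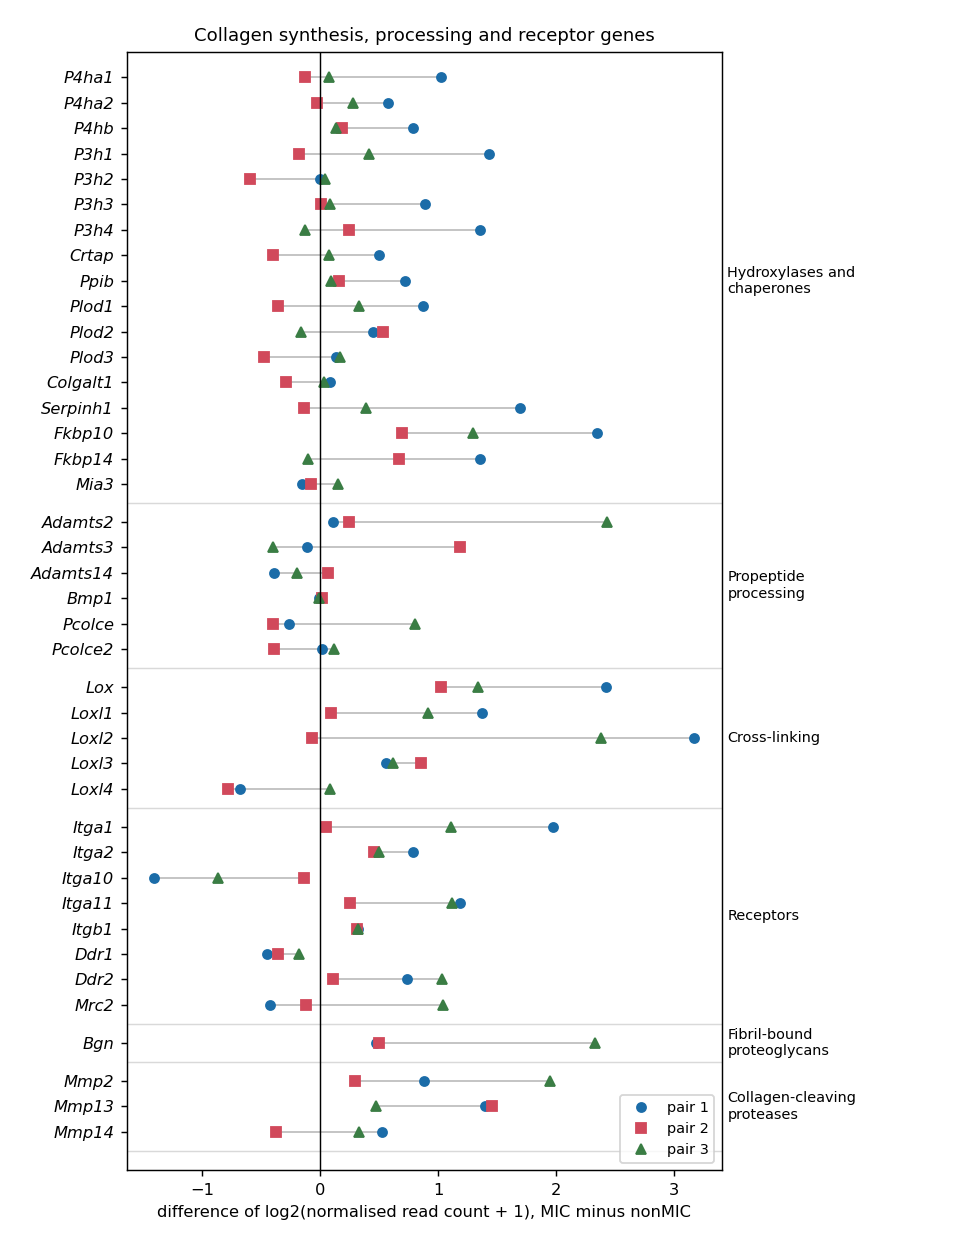
Differences of log2(normalised read count + 1) between the MIC and the non-MIC library of each pair (horizontal axis) for the 40 genes of collagen synthesis, processing and recognition with at least 10 reads in every library. Grey lines join the pairs of a gene. Lox, Fkbp10 and Mmp13 lay right of 0 in all 3 pairs, and Bmp1 lay close to 0 in each.

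Markers of cell types that a sort could hold moved with some of these chains. Of 9 basal or myoepithelial markers 6 were higher in MICs in all 3 pairs (12.5% of all genes). In limma with the block 5 passed (0.13% of all genes). The exceptions were Krt14, Krt17 and Oxtr, whose pair 2 difference was negative. The pair differences were 0.50, -0.90 and 0.11 for Krt14 and 0.75, -0.12 and 0.60 for Krt17. For Oxtr, with 8 reads in its lowest library, they were 0.69, -0.67 and 1.18. Over all 9 markers the summed normalised read counts were 429054, 24380 and 72203 in MICs against 145058, 24140.0 and 47133 in non-MICs. None of the 9 was at 0 in any library. Acta2, a smooth muscle actin, had the highest mean but led only in MIC library 1, and Krt17 led in every other library. By the sums, library 1 was the highest and library 2 the lowest of both groups, which is also the order of Col17a1, Col5a2 and Col1a2. Col8a2 and the sums of the luminal markers had this order too. The luminal sums were 590209, 211672 and 448908 in MICs against 698538, 277222 and 424123 in non-MICs. The part of basal cells in the differences of these chains was not tested.

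Fibroblast markers were low, with sums over the 9 of 10 listed markers of 606, 430.4 and 509 in MICs against 308, 524 and 378 in non-MICs. Ly6c1 was the most abundant by its mean, although Pdgfra stood above it in both libraries of pair 3. Of the 9, 3 were higher in MICs in all 3 pairs (12.5% of all genes), and Lum, Dpt and Clec3b had 0 reads in at least 1 library. Dcn, the proteoglycan decorin, had 59.3, 5.56 and 54.8 normalised read counts in MICs against 26.5, 4.23 and 4.91 in non-MICs, with its largest pair difference, 3.24, in pair 3, where Col1a1, Col3a1, Col5a1, Col6a1 and Col6a2 were also higher in MICs. In pairs 1, 2 and 3, 5, 5 and 8 of the 9 were higher in MICs, and in pair 3 Ly6c1, at -0.48, was the lower one. edgeR with the block called Dcn (adjusted p 0.0152) and Cd34 (0.0434), both with under 10 reads in a library. Neither was called with the block by limma (adjusted p 0.418 and 0.524) or by DESeq2 (0.251 and 0.330). In pair 2 Cd34 was lower in MICs, at -0.76. The gate kept Lin−CD24+ cells in both populations, and the part of fibroblasts in that pair was not tested. The 6 pericyte markers summed to 519, 612 and 398 in MICs against 986, 571 and 355 in non-MICs, led by Notch3, and Rgs5 and Kcnj8 were at 0 in 1 library each. Of the 6, 3 were higher in MICs in all 3 pairs. Notch3 differed by -1.46, 0.06 and -0.62, Pdgfrb by -0.15, 0.17 and 1.87 and Cspg4, with 4 reads in its lowest library, by 1.71, 1.46 and 2.78, and edgeR with the block called Cspg4 at an adjusted p of 0.000684. limma and DESeq2 with the block did not call Cspg4, at adjusted p-values of 0.228 and 0.0564. The part of pericytes was not tested either.

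The 6 luminal markers summed to between 211672 and 590209 normalised read counts in MICs and between 277222 and 698538 in non-MICs, and none was at 0. Krt18 had the highest mean, and Krt8 stood above it in MIC library 1 and non-MIC library 2. Epcam and Elf5 were lower in MICs in all 3 pairs (18.8% of all genes). Epcam differed by -0.42, -0.23 and -0.0027, so that it was nearly equal in pair 3, and Elf5 by -1.31, -0.93 and -1.04. edgeR and DESeq2 with the block called Elf5 at adjusted p-values of 0.000449 and 0.00253, and limma with the block did not, at 0.139. Endothelial markers summed to at most 51.8 in any library, with Emcn at 0 in 1 of them. Immune markers summed to between 91.7 and 1925, with Ptprc and Cd79a at 0 in some libraries. Lyz2 led them by mean and in pair 2, and Cd68 in both libraries of pairs 1 and 3. Schwann cell markers summed to between 1019 and 4458, nearly all from Sox10. All 3 Schwann cell markers were lower in MICs in all 3 pairs, and edgeR with the block called Sox10 (adjusted p 0.0496). limma and DESeq2 with the block did not call Sox10, at adjusted p-values of 0.381 and 0.162. The part of luminal and Schwann cells in the differences of the chains was not tested. Plin1, the adipocyte marker that was listed, had at most 2 reads in any library.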

How the data were processed

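Libraries were made by a stranded mRNA method and sequenced in 75-base reads. The submitters' processing notes name STAR and HTSeq with mm10 and GRCm38, whereas the study's methods name Bowtie2 and samtools, and versions are not given in the sources used here. The deposited signal is a gene count that the authors scaled to the total of each library. Dividing by the value of 1 read gave whole reads, within 0.01, for between 99.99% and 100.0% of values. Symbols and positions came from GENCODE vM21 (22161 of 22310 identifiers). limma 3.58.1 in R 4.3.3 was fitted on log2(value + 1) with a trend, over all genes, two-sided, with Benjamini-Hochberg adjustment at 0.05, so fold changes of low genes are understated. The quasi-likelihood test of edgeR 4.0.16 and DESeq2 1.42.0 took the recovered reads, and pandas 2.3.3 was used for tables. The scripts were tested on simulated data. After subtraction of group means, libraries with the same number correlated across genes at 0.573, 0.668 and 0.746 and the others between -0.536 and -0.194, so the numbers, which both groups share in the labels, pair the libraries. The study counts replicates as separate experiments or tumors without saying which, and the labels do not say that they are separate animals, so p-values measure the spread between these samples. Library values were given for chains with at least 10 reads in every library that passed in limma, had 1 direction in all 3 pairs or led their class per kb, and for genes of the list around them that passed or led their group. The members and lists were chosen with earlier results of these data known.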

Additional observations from a re-analysis of the deposited data

How the results depend on the processing

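The alternatives were a pseudocount of 0.1 or 10, only genes at or above the median level, TMM rescaling, quantile normalization, limma without a trend, the replicate block, edgeR and DESeq2 on the recovered reads with and without that block, and each library left out in turn. Of 0 chains, 0 listed synthesis and receptor genes and 0 genes in all that limma called without a block, the replicate block gave 1, 1 and 29, edgeR with the replicate block 3, 9 and 315, and DESeq2 with the replicate block 2, 4 and 133. DESeq2 without the block called 1 gene in all, and the other alternatives without a block called 0 in each of these sets, leaving out any 1 library included. At an unadjusted p under 0.05 limma without a block gave 1 chain, 2 listed genes and 322 genes. The chain and the listed gene that limma called with the block were Col5a2 and Lox.

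Leaving out 1 pair, the count of chains called with the replicate block ran from 0 to 3, and TMM rescaling with the replicate block, chosen after seeing the data, kept it at 1. The median log2 fold change of the chains ran from -0.045 to 0.47 when 1 library was left out. Without a block, edgeR and DESeq2 turned the sign of Col6a1 (-0.25 and -0.22), Col5a1 (-0.27 and -0.24) and Col6a2 (-0.25 and -0.22), and edgeR that of Bmp1 (-0.0015). With 1 library left out, the log2 fold change ran from -0.28 to 2.13 for Bgn, from -0.080 to 0.073 for Bmp1, from -0.10 to 0.33 for Col11a1, from -0.088 to 0.47 for Col16a1, from -0.30 to 0.72 for Col18a1, from -0.35 to 0.75 for Col1a1, from -0.066 to 1.10 for Col4a1, from -0.033 to 0.88 for Col4a2, from -0.054 to 0.62 for Col4a4, from -1.01 to 0.79 for Col5a1, from -0.82 to 0.92 for Col6a1, from -0.81 to 1.36 for Col6a2 and from -0.50 to 0.74 for Mmp14. The chains called with the block kept their sign and moved far in size, from 0.42 to 2.37 for Col5a2, from 0.99 to 2.66 for Col1a2 and from 0.31 to 3.06 for Col17a1. With a whole pair left out and the block, these ranges were 1.18 to 1.46, 1.28 to 2.32 and 0.97 to 2.11. The cause of these changes was not tested.

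With 3 libraries a group, limma without a block called no gene of the table, and Thy1, on which the cells were sorted, had an adjusted p of 0.816 there and 5.31e-05 with the block. Chains with few reads were limited by depth, and for 14 of 41 no fold change was read singly, although medians and counts over all chains include them. A count of pairs in 1 direction has 3 pairs behind it. In 13 of 25 named genes the fold change crossed 0 on omission of a single library, which leaves a pair incomplete so that differences between pairs enter it. On omission of a whole pair with the block, chosen after seeing the data, 10 crossed 0: Col4a1 (-0.070 to 1.24), Col4a2 (-0.066 to 1.00), Col6a1 (-0.50 to 0.76), Col6a2 (-0.55 to 1.21), Col1a1 (-0.41 to 0.73), Col3a1 (-0.35 to 1.17), Col5a1 (-0.59 to 0.85), Col8a1 (-0.0048 to 0.75), Bmp1 (-0.0082 to 0.0053) and Mmp14 (-0.023 to 0.43). Col11a1, Col16a1, Col4a4, Col18a1 and Bgn did not.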
